A study of Mus musculus with 6 samples.

Results

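The genes described are 33 genes of cholesterol and fatty acid synthesis in collecting duct cells isolated from mouse kidney. They belong to textbook pathways and were chosen with earlier results of these data known. Among them are 5 regulators of the sterol regulatory element binding proteins (SREBPs) and 18 enzymes from acetyl-CoA to cholesterol. The rest are 2 sterol-binding proteins and 8 enzymes of fatty acid synthesis and its NADPH supply. Each was taken as the sum of the deposited transcript identifiers whose exons overlap the gene on the same strand by at least 50% of their exonic bases, and all 33 were found among 24913 genes. RNA was sequenced from male C57BL/6J mice, an inbred strain, with 3 libraries from mice kept on a low-NaCl diet (0.01 to 0.02% sodium) and 3 from mice kept on a high-NaCl diet (2.4% sodium), both for 5 days. Low sodium intake raises aldosterone, the steroid hormone that drives sodium uptake in this segment, and the series title names the transcripts it induces as the subject. Neither the isolation method nor the number of animals behind a library is given in the labels. A p-value here therefore reflects only how far these 6 libraries scatter, part of which may be technical.

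SREBPs are transcription factors held in the membrane of the endoplasmic reticulum. When sterols are scarce, the escort protein SCAP carries them to the Golgi, where they are cut and released to the nucleus, and when sterols are plentiful INSIG proteins keep SCAP in place. SREBP-2, from Srebf2, mainly drives the sterol pathway and SREBP-1, from Srebf1, mainly fatty acid synthesis. The collecting duct is best known for water, salt and acid transport, and its cells need sterols and fatty acids for their membranes.

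The libraries held 40101899 to 46861531 counted reads, and levels are given as CPM, counts relative to the size of the library after scaling between libraries. Principal cells were marked by Aqp2, at 2136 to 3624 CPM in the low-NaCl libraries and 6148 to 8312 CPM in the high-NaCl libraries, and intercalated cells by Foxi1, at 282 to 521 CPM in the low-NaCl libraries and 134 to 164 CPM in the high-NaCl libraries. Mitochondrial reads took 20.5 to 21.8% of counts in the low-NaCl libraries, 29.9% and 28.7% in high-NaCl libraries 1 and 3, and 21.9% in high-NaCl library 2. In bulk RNA, fewer cells of a type and less RNA per cell cannot be told apart. The 8 adipocyte markers (Adipoq, Plin1, Plin4, Cidec, Fabp4, Lep, Retn and Pparg) summed to 0.199 to 0.472 CPM in the low-NaCl libraries and 0.358 to 0.718 CPM in the high-NaCl libraries, with Plin1 and Cidec at 0 in all 6. Only 16 bases of Cidec, 0.931% of its exonic bases, could be counted, so its level is not known from these counts. The 10 proximal tubule markers summed to 1735 to 3468 CPM in low-NaCl and 971 to 2205 CPM in high-NaCl libraries, and 0 of the 8 tested passed. Nearly all of that sum was Aqp1, a water channel also found in other cells, at 1705 to 3447 CPM in low-NaCl and 939 to 2170 CPM in high-NaCl libraries, while Lrp2 had 2.58 to 28.7 CPM in low-NaCl and 11.01 to 16.8 CPM in high-NaCl libraries. The 9 principal cell markers summed to 3120 to 4762 CPM in the low-NaCl libraries and 8774 to 10940 CPM in the high-NaCl libraries, with 3 of 7 tested lower on the low-NaCl diet (Aqp2, Aqp3 and Scnn1g). The 10 intercalated cell markers summed to 2920 to 5663 CPM in the low-NaCl libraries and 1893 to 2166 CPM in the high-NaCl libraries, with 6 of 10 higher on the low-NaCl diet. The 5 markers of the thick limb and distal convoluted tubule summed to 95.3 to 108 CPM in the low-NaCl libraries and 47.3 to 67.5 CPM in the high-NaCl libraries, with 1 of 4 tested (Slc12a1) higher on the low-NaCl diet. Of the 4 connecting tubule markers 2 of 3 tested were lower on the low-NaCl diet, Calb1 (log2 fold change -1.36, adjusted p = 0.00658) and Trpv5 (-1.43, adjusted p = 0.0417). The 4 markers summed to 28700 to 31830 CPM in the low-NaCl libraries and 30110 to 38930 CPM in the high-NaCl libraries, which overlap. Nearly all of that sum was Klk1, the third tested marker, which did not pass (log2 fold change -0.16, adjusted p = 0.715). The 4 endothelial markers summed to 0.0236 to 1.14 CPM in low-NaCl and 1.36 to 1.73 CPM in high-NaCl libraries and 0 of 2 tested passed, with Emcn at 0 and Pecam1 not countable. The 5 immune markers summed to 0.137 to 0.66 CPM in low-NaCl and 0.303 to 0.688 CPM in high-NaCl libraries, with Ptprc at 0 and none tested. Podocyte markers summed to 1.085 to 8.95 CPM in low-NaCl and 4.99 to 12.7 CPM in high-NaCl libraries. Those of stroma and smooth muscle summed to 5.85 to 7.38 CPM in low-NaCl and 3.86 to 7.40 CPM in high-NaCl libraries. Red cell markers gave 0.0707 to 4.85 CPM in low-NaCl and 0.268 to 3.22 CPM in high-NaCl libraries. Urothelial markers gave 0.547 to 3.04 CPM in low-NaCl and 0.899 to 3.19 CPM in high-NaCl libraries. No tested marker of these lists passed. The part of these marker differences in the results that follow was not tested.

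No gene of the 25 with enough counts to test passed between the diets, and the other 8 of the 33 had too few counts. Of the 25, 0 were called by edgeR at an adjusted p under 0.05, beside 3.46% of all 10564 genes tested (1.72% higher and 1.74% lower on the low-NaCl diet), while 4 had an unadjusted p under 0.05, beside 18.3% of all genes. DESeq2 called 1, Msmo1, beside 8.11% of all genes, and limma-voom called 0, beside 2.92%. The log2 fold change (low-NaCl minus high-NaCl) was above 0 in 21 of the 25 tested genes and below 0 in 4, with a median of 0.13, against a median of -0.00204 over all genes tested, where 5262 were above 0 and 5302 below. The libraries of the diets did not overlap in 4 of the 25, beside 23.9% of all genes. Over the roles, the median was 0.40 for the 8 tested enzymes from squalene to cholesterol, 0.13 for 7 genes of the mevalonate and isoprenoid steps, 0.09 for 3 SREBP regulators, 0.02 for 5 genes of fatty acid synthesis and -0.22 for the 2 sterol-binding proteins. Leaving out low-NaCl library 1 moved the median of the tested members to 0.06 and the number above 0 to 15.

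**Figure D1:**
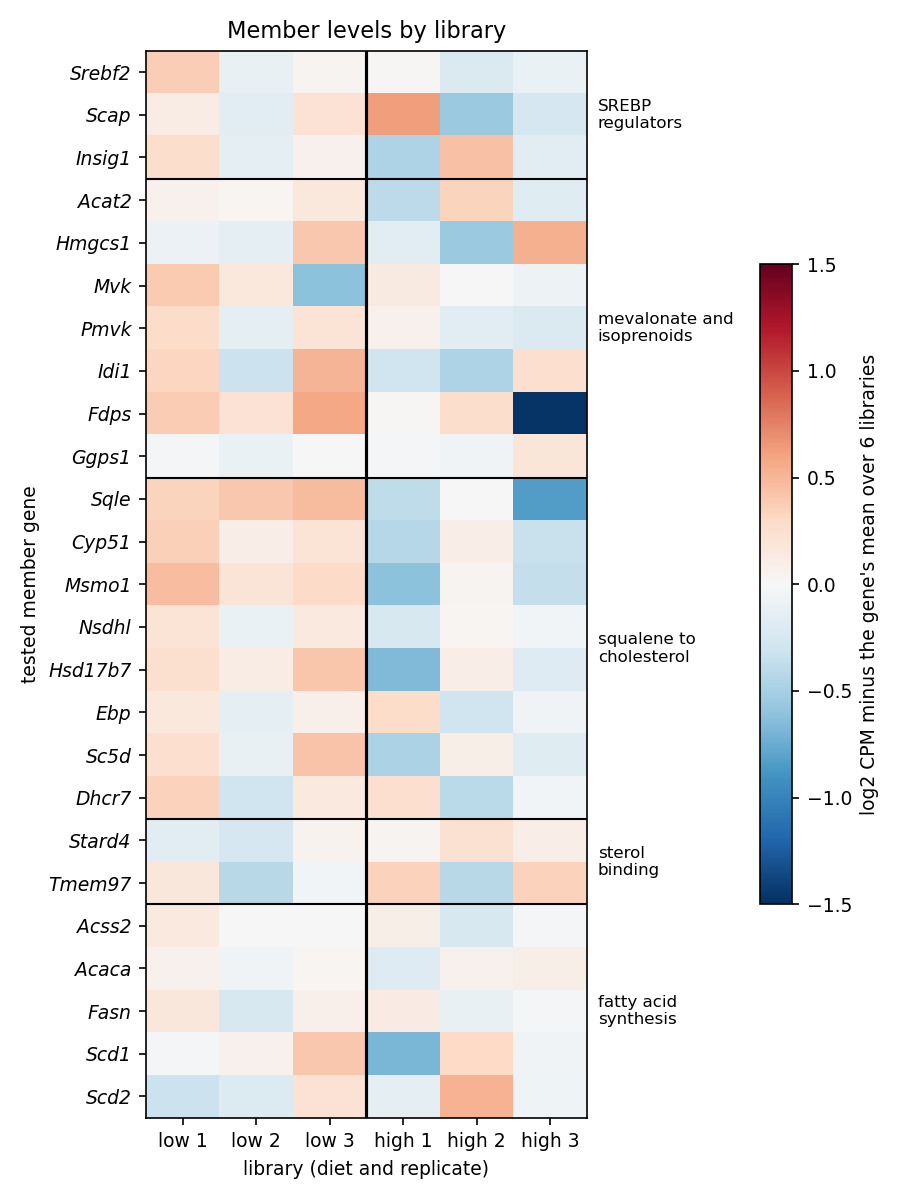
Level of each tested member in each library, as log2 CPM minus the gene's mean over the 6 libraries (colour), with low-NaCl libraries left of high-NaCl libraries and genes grouped by role. Sqle, Cyp51, Msmo1 and Hsd17b7 are higher in all 3 low-NaCl libraries than in any high-NaCl library, and high-NaCl library 2 lies nearest to them; the darkest cell is Fdps in high-NaCl library 3 at -1.47.

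The enzymes that turn squalene into cholesterol held the members with the smallest p-values. Msmo1, the C4-methyl sterol oxidase (chr8:64718139-64733792), measured 122, 100.9 and 108 CPM in low-NaCl libraries 1 to 3, against 57.9, 90.7 and 68.8 CPM in high-NaCl libraries 1 to 3. Its low-NaCl libraries all lay above its high-NaCl ones, and its closest high-NaCl value was that of library 2. The log2 fold change was 0.61 ± 0.18 (SE, adjusted p = 0.0976). This 1.52-fold difference, with a 95% interval of 1.159 to 1.999 in fold, did not pass.

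Sqle, squalene epoxidase, which makes the first oxygenated intermediate (chr15:59315077-59331192), measured 3.01, 3.16 and 3.30 CPM in low-NaCl libraries 1 to 3, against 1.82, 2.37 and 1.30 CPM in high-NaCl libraries 1 to 3. The diets did not overlap and the log2 fold change was 0.78 ± 0.26 (adjusted p = 0.141). These reads came from the 96 bases, 3.49% of its exonic bases, that belong to a single deposited identifier, because reads in exons shared by several identifiers were not counted. Cyp51, the lanosterol demethylase (chr5:4081145-4104746), could be counted over its whole length. It measured 94.8, 79.4 and 84.9 CPM in low-NaCl libraries 1 to 3, against 55.1, 78.9 and 58.5 CPM in high-NaCl libraries 1 to 3. Low-NaCl library 2 and high-NaCl library 2 were thus almost level, and the log2 fold change was 0.43 ± 0.16 (adjusted p = 0.194).

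Hsd17b7, the 3-ketosterol reductase that acts beside Msmo1 and Nsdhl in removing the C4 methyl groups (chr1:169949535-169969241), measured 17.4, 15.9 and 19.6 CPM in low-NaCl libraries 1 to 3, against 9.27, 15.8 and 12.9 CPM in high-NaCl libraries 1 to 3. The diets lay apart by the small gap between library 2 of each, and the log2 fold change was 0.48 ± 0.20 (adjusted p = 0.252). Sc5d, the lathosterol desaturase, measured 7.53, 5.83 and 8.54 CPM in low-NaCl libraries 1 to 3, against 4.51, 6.73 and 5.53 CPM in high-NaCl libraries 1 to 3. Here the diets overlapped and the log2 fold change was 0.38 ± 0.22 (adjusted p = 0.405).

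The other 3 tested enzymes of this stretch differed less. Nsdhl, the sterol dehydrogenase of C4 demethylation, averaged 56.0 ± 5.97 CPM in low-NaCl and 49.9 ± 4.72 CPM in high-NaCl libraries (SD, n = 3 each, log2 fold change 0.17 ± 0.14). Ebp, the sterol isomerase, averaged 169.7 ± 17.8 CPM in low-NaCl and 165.1 ± 33.1 CPM in high-NaCl libraries. Dhcr7, the reductase of the last step, averaged 48.7 ± 10.7 CPM in low-NaCl and 44.4 ± 9.87 CPM in high-NaCl libraries. The 95% interval of the low-NaCl over high-NaCl fold was 0.79 to 1.34 for Ebp and 0.797 to 1.51 for Dhcr7, so differences inside those bounds are not shown to be absent. Both were highest in library 1 and lowest in library 2 of each diet.

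**Figure D2:**
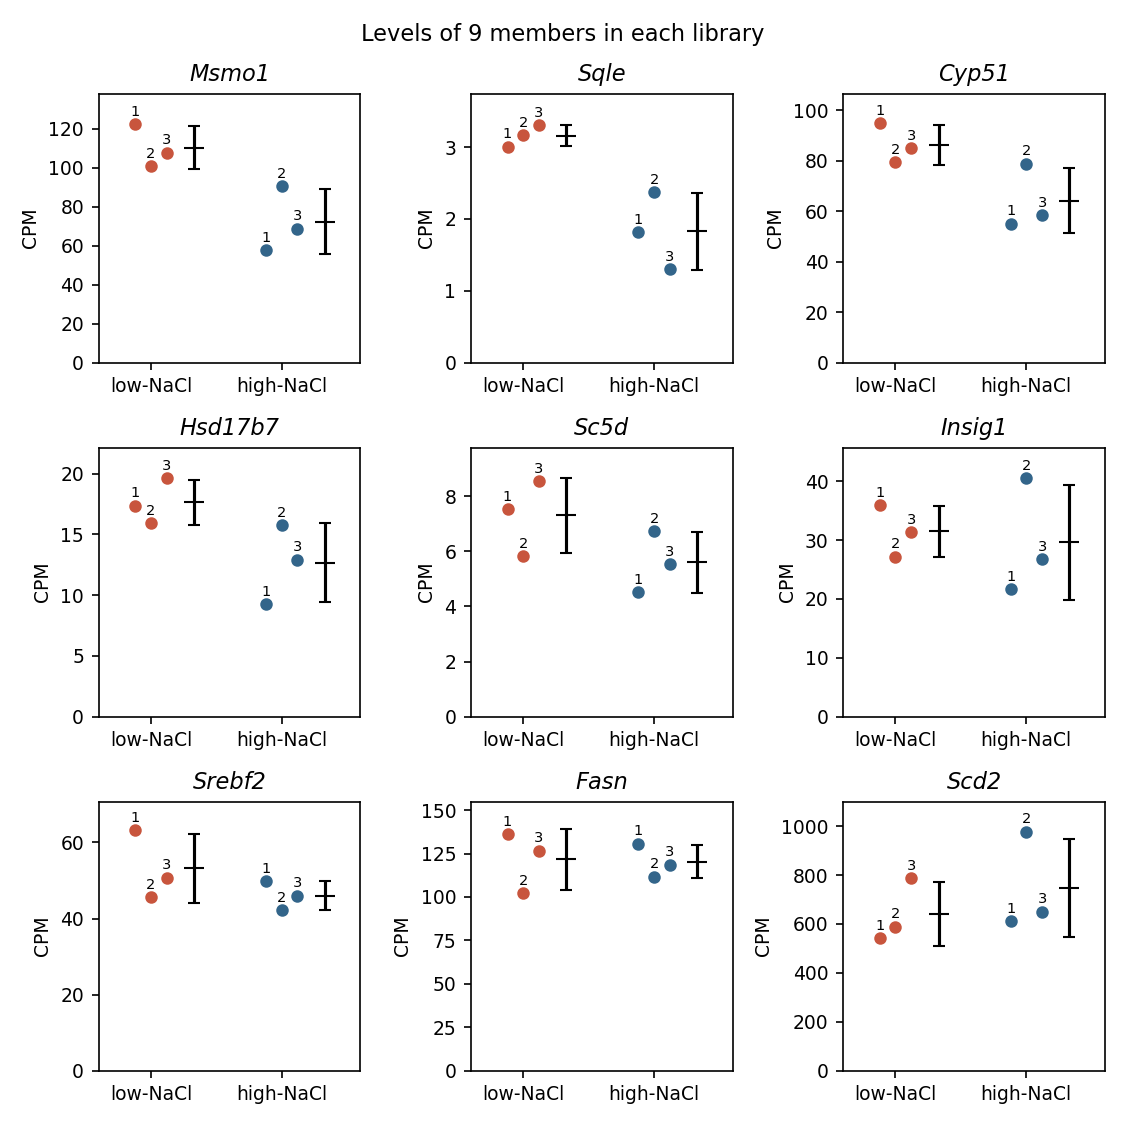
CPM of 9 members in each library (points, numbered by replicate), with the mean and SD of the 3 libraries (black), low-NaCl left of high-NaCl. In the top row and in Hsd17b7 the diets do not overlap, and in Insig1 and Scd2 the highest value of all 6 is high-NaCl library 2, at 40.5 and 977 CPM.

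Upstream sequences of the sterol genes are shown because the members nearest to the threshold are known SREBP targets in mouse, and SREBPs act at promoters together with NF-Y, which binds CCAAT. RefSeq windows (GRCm38.p6) were at hand for 27 of the 33 genes, without Fdps, Sqle, Fdft1, Stard4, Scd1 and Scd2, and the 250 bases before each start were searched on both strands. CCAAT was found for 22 of the 27 genes (81.5%), against 37.5% of all 27025 genes with a window. A sterol element written TCACNCCAC was found for 1, Hmgcs1 (3.7%, against 1.22% of all genes), and the E-box CACGTG for 5 (18.5%, against 6.86%). Both have few matches, and a match is a description of letters and not a bound site. Only these exact letters were searched, so a window without a match is not shown to lack a site. Below, the windows of 3 of the 4 genes whose diets lay apart (Sqle has none) and of Hmgcs1 run 5′ to 3′ in the direction of the gene, with matches to these motifs on either strand in capitals. The CCAAT box reads ATTGG when it lies on the other strand. The Msmo1 window is chr8:64733579-64733828, minus strand, that of Cyp51 chr5:4104698-4104947, minus strand, that of Hsd17b7 chr1:169969206-169969455, minus strand, and that of Hmgcs1 chr13:119690101-119690350, plus strand.
Msmo1: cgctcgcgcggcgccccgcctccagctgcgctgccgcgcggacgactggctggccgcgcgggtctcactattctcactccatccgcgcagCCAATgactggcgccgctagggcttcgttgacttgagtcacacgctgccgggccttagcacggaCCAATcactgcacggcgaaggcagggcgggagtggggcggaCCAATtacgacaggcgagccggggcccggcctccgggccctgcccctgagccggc
Cyp51: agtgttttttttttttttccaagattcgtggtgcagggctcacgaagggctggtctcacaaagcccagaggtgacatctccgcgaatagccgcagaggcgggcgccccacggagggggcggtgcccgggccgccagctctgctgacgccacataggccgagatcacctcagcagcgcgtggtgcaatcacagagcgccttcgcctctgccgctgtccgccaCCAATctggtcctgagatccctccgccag
Hsd17b7: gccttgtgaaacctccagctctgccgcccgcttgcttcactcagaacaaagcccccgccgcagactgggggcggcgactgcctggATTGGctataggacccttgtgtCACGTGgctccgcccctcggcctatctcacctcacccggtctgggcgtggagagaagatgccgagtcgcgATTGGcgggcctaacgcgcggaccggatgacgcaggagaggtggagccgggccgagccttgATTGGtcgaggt
Hmgcs1: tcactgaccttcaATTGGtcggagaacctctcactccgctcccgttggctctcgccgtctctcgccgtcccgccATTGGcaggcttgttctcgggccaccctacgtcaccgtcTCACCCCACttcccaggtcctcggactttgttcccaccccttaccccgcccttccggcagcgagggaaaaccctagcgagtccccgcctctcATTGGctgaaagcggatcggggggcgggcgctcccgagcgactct
Msmo1 and Hsd17b7 hold 3 CCAAT boxes each and Cyp51 holds 1, and Hsd17b7 also holds an E-box. Hmgcs1 holds 3 CCAAT boxes and the sterol element. The windows of Nsdhl and Ebp, whose diets overlapped, hold 2 CCAAT boxes each, as do those of Idi1, Mvd and Tmem97. Also with overlapping diets, Mvk holds 5, Fasn and Ggps1 hold 3 each, and Sc5d, Srebf2, Insig1 and Acss2 hold 1 each. In Fasn the matches at -62 to -58 and -59 to -55 from the start overlap on opposite strands, so they are not separate sites. A link between the number of boxes and the diet difference was not tested.

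Leaving out high-NaCl library 2 changed the calls of 2 of these enzymes. Among the 3 high-NaCl libraries it was the highest in 6 of the 8 tested enzymes from squalene to cholesterol, beside 38.6% of all genes tested. Without it, edgeR called 2 members, Msmo1 with a log2 fold change of 0.80 ± 0.14 (adjusted p = 0.0175) and Cyp51 with 0.60 ± 0.13 (adjusted p = 0.0331), beside 4.75% of all genes called with those 5 libraries. Sqle then had 1.02 ± 0.26 (adjusted p = 0.0594) and Hsd17b7 0.67 ± 0.19 (adjusted p = 0.0781). In Msmo1, Cyp51, Sqle and Hsd17b7 that library was the high-NaCl one nearest to the low-NaCl values. Leaving it out therefore widens their difference by itself, and these adjusted p-values are no separate support for a diet difference. With any other single library left out, 0 members were called. This library is also the high-NaCl one whose mitochondrial share lay with those of the low-NaCl libraries, and the part of that in these values was not tested.

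**Figure D3:**
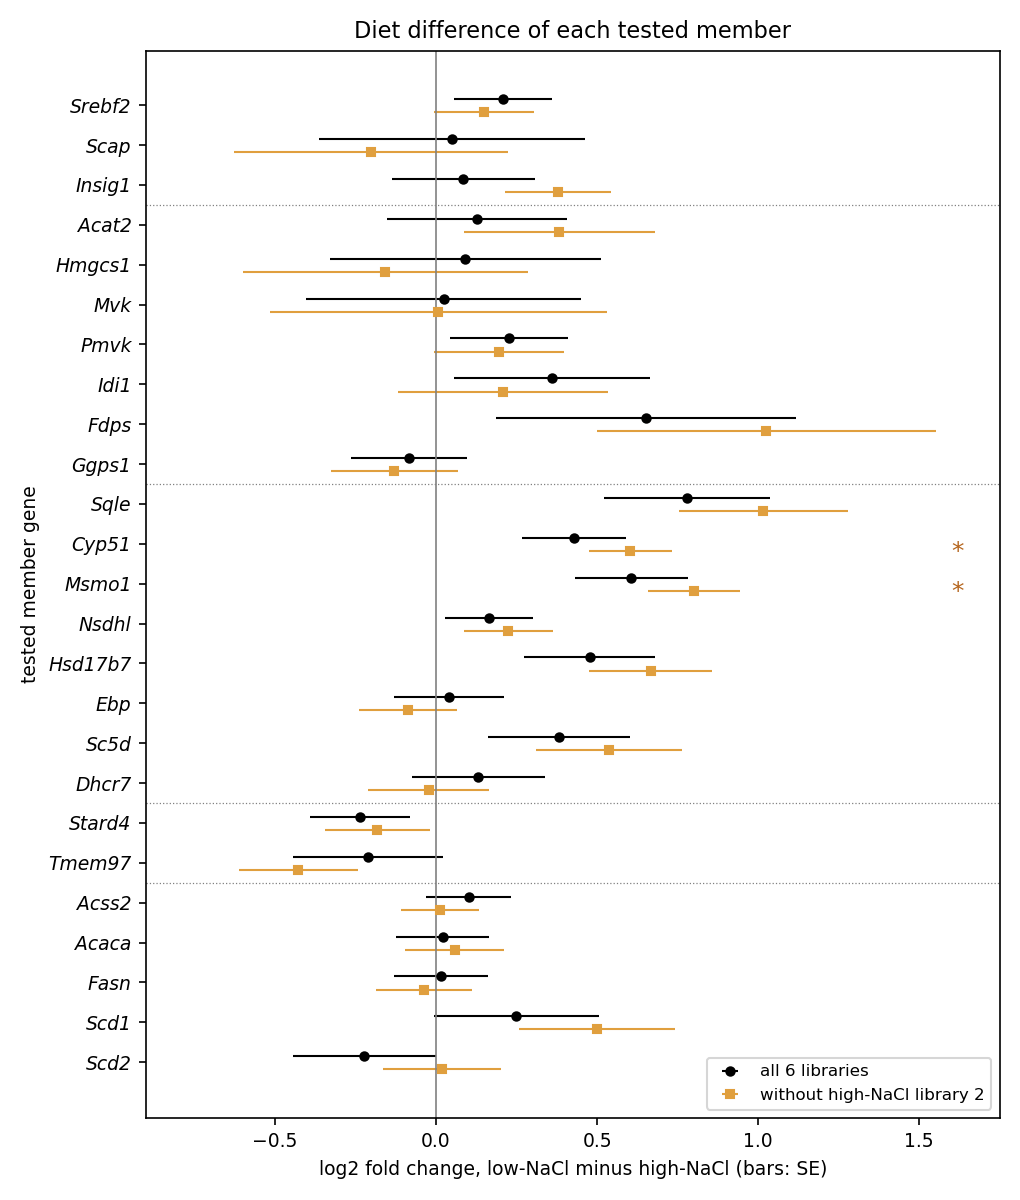
Log2 fold change, low-NaCl minus high-NaCl, of the 25 tested members by role, with all 6 libraries (black circles) and without high-NaCl library 2 (orange squares); bars are SE and asterisks mark an adjusted p under 0.05 without that library. Msmo1 moves to 0.80 and Cyp51 to 0.60, while Fasn and Acaca stay within 0.06 of 0 in both. In Msmo1 and Cyp51 the library left out was the high-NaCl one nearest to the low-NaCl values, so its removal widens their difference by itself.

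Per the file headers, library 1 of both diets carries lane number 1, low-NaCl libraries 2 and 3 number 2 and high-NaCl libraries 2 and 3 number 3. The sequencing run behind a lane number was not read, so an equal number need not mean the same physical lane. Diet and lane number cannot be told apart outside lane 1. Within lane 1 the log2 difference (low-NaCl minus high-NaCl, 1 library each, no test) was 1.079 for Msmo1, 0.90 for Hsd17b7, 0.78 for Cyp51, 0.73 for Sc5d and 0.71 for Sqle, with a median of 0.72 over the 8 tested enzymes of this stretch and 0.01 over all genes tested. For these 8 enzymes the median of log2 CPM minus the gene's mean was highest of the 6 libraries in low-NaCl library 1 (0.30). It was lowest in high-NaCl library 1 (-0.40). The lane 1 values thus set the highest library of this stretch against the lowest. With lane as a term 0 members were called, beside 0.0284% of all genes.

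The SREBP regulators did not pass. Srebf2 (chr15:82147181-82205379) measured 63.3, 45.5 and 50.7 CPM in low-NaCl libraries 1 to 3, against 49.8, 42.2 and 46.0 CPM in high-NaCl libraries 1 to 3. The diets overlapped, with a log2 fold change of 0.21 ± 0.15 (adjusted p = 0.516). Insig1, a sensor that is itself switched on by SREBPs, measured 35.9, 27.2 and 31.3 CPM in low-NaCl libraries 1 to 3, against 21.6, 40.5 and 26.7 CPM in high-NaCl libraries 1 to 3. Its level in high-NaCl library 2 was the highest of all, and its log2 fold change of 0.09 ± 0.22 (adjusted p = 0.877) became 0.38 ± 0.17 (adjusted p = 0.198) when that library was left out. Scap averaged 0.673 ± 0.0947 CPM in low-NaCl and 0.657 ± 0.318 CPM in high-NaCl libraries, from 156 countable bases. Insig2, the second sensor, had 5, 6 and 3 reads in low-NaCl libraries 1 to 3, against 8, 1 and 0 in high-NaCl libraries 1 to 3, too few to test. No read was counted for Srebf1 in any library, where 15 bases, 0.349% of its exonic bases, were countable, so its level is not known from these counts.

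The Srebf2 value joined reads from different stretches of the gene, and their values were also taken apart, a step chosen after they were seen. The deposited identifier uc007wyh.1 is a short form of 4 exons whose introns match a GENCODE transcript annotated as a retained intron and whose 995 countable bases (chr15:82172900-82173894) belong to no other identifier. It measured 24.85, 22.8 and 22.4 CPM in low-NaCl libraries 1 to 3, against 14.6, 19.3 and 16.7 CPM in high-NaCl libraries 1 to 3. These groups did not overlap, with a log2 fold change of 0.46 ± 0.15 in a fit of each identifier alone (unadjusted p = 0.0127, adjusted p = 0.148). The last-exon identifier uc029stz.1, countable over 166 bases (chr15:82204961-82205126), measured 27.7, 16.0 and 19.1 CPM in low-NaCl libraries 1 to 3, against 25.6, 16.4 and 21.6 CPM in high-NaCl libraries 1 to 3. There the diets overlapped and the log2 fold change was -0.02 ± 0.23 (adjusted p = 0.973). The 19-exon form uc007wyi.1, countable over 190 bases (chr15:82203837-82204026), had a value of 0.16 ± 0.22 (adjusted p = 0.773), and the 21-exon form uc011zwr.1 had no countable base. Of the counted Srebf2 reads, 39.3 to 50% in the low-NaCl and 29.2 to 45.7% in the high-NaCl libraries fell in uc007wyh.1. That identifier holds 995 of the 1351 countable bases of the gene, so these percentages are not its share of Srebf2 RNA. Unspliced Srebf2 RNA that keeps this stretch would be counted there too. The difference between the identifiers was not tested.

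**Figure D4:**
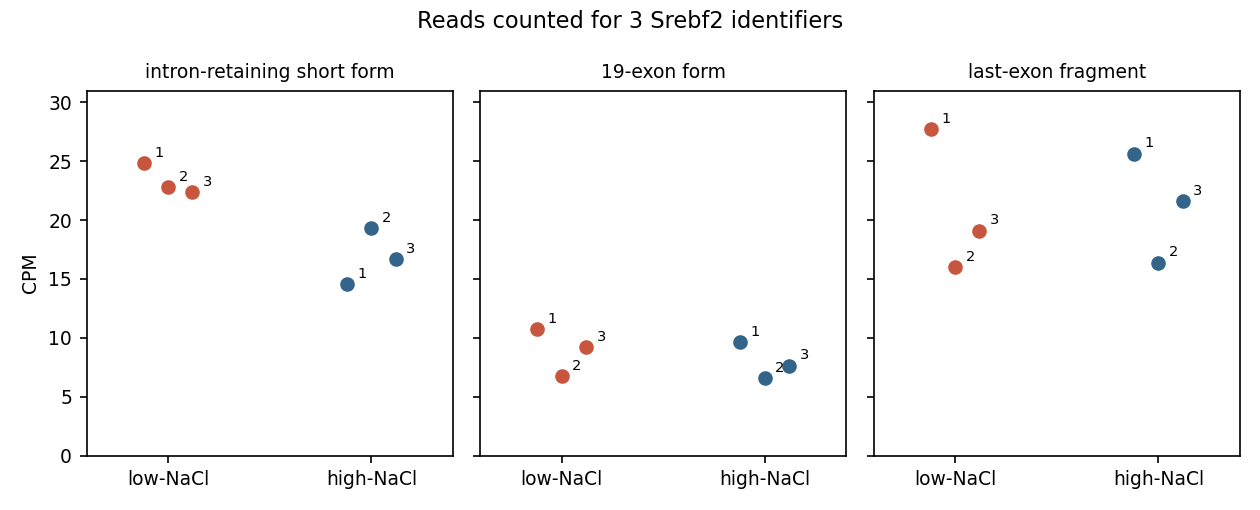
CPM of the 3 Srebf2 identifiers with counted reads in each library (points, numbered by replicate), low-NaCl left of high-NaCl. The intron-retaining short form lies at 22.4 to 24.85 CPM in the low-NaCl libraries and 14.6 to 19.3 CPM in the high-NaCl libraries, while the diets overlap in both other panels.

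The mevalonate and isoprenoid steps were counted thinly and held no call. Pmvk, phosphomevalonate kinase, averaged 9.02 ± 1.32 CPM in low-NaCl and 7.70 ± 0.821 CPM in high-NaCl libraries (log2 fold change 0.23 ± 0.18, adjusted p = 0.56). Idi1, the isopentenyl diphosphate isomerase, measured 2.51, 1.59 and 2.88 CPM in low-NaCl libraries 1 to 3, against 1.623, 1.43 and 2.39 CPM in high-NaCl libraries 1 to 3, with overlapping diets (adjusted p = 0.582). Fdps, which makes farnesyl diphosphate, had 32, 31 and 39 reads in low-NaCl libraries 1 to 3, against 22, 38 and 7 in high-NaCl libraries 1 to 3. Its log2 fold change of 0.65 ± 0.47 became 0.27 when high-NaCl library 3 was left out, and 1.025 when library 2 of that diet was. Ggps1, at the branch to geranylgeranyl diphosphate, averaged 4.85 ± 0.182 CPM in low-NaCl and 5.14 ± 0.463 CPM in high-NaCl libraries (adjusted p = 0.847). Acat2, the cytosolic thiolase of the first step, averaged 1.52 ± 0.0766 CPM in low-NaCl and 1.38 ± 0.388 CPM in high-NaCl libraries. Hmgcs1, the HMG-CoA synthase, and Mvk, mevalonate kinase, had 11 to 32 reads per library and 95% intervals of the low-NaCl over high-NaCl fold of 0.555 to 2.04 and 0.524 to 1.97. The other 3 sterol enzymes could not be tested: Mvd, the mevalonate diphosphate decarboxylase, had 0 or 1 read per library, Fdft1, squalene synthase, 0 to 4 reads, and Lss, lanosterol synthase, 5, 1 and 1 reads in low-NaCl libraries 1 to 3 against 0 in each high-NaCl library, with 3.70 to 17.8% of their exonic bases countable.

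Both sterol-binding proteins had log2 fold changes below 0. Stard4, a cytosolic cholesterol carrier, measured 12.8, 12.04 and 14.85 CPM in low-NaCl libraries 1 to 3, against 14.7, 16.8 and 15.3 CPM in high-NaCl libraries 1 to 3 (log2 fold change -0.24 ± 0.15, adjusted p = 0.465). Only low-NaCl library 3 reached the level of the high-NaCl group. Tmem97, the sigma-2 receptor, averaged 15.5 ± 3.06 CPM in low-NaCl and 18.0 ± 4.95 CPM in high-NaCl libraries (log2 fold change -0.21 ± 0.23, adjusted p = 0.687), and with single libraries left out its value lay between -0.43 (without high-NaCl library 2) and -0.07 (without low-NaCl library 2). Under all 18 alternatives tried, both had a value below 0.

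The enzymes that build the saturated fatty acid chain, Fasn and Acaca, had log2 fold changes near 0. Fasn, fatty acid synthase (chr11:120805846-120824547), measured 136, 102 and 127 CPM in low-NaCl libraries 1 to 3, against 131, 112 and 119 CPM in high-NaCl libraries 1 to 3. Its log2 fold change was 0.01 ± 0.15, and the interval allows a low-NaCl over high-NaCl fold of 0.805 to 1.27. Acaca, the acetyl-CoA carboxylase that makes malonyl-CoA, averaged 19.6 ± 0.852 CPM in low-NaCl and 19.3 ± 2.07 CPM in high-NaCl libraries, with an interval of 0.812 to 1.27. Acss2, which makes acetyl-CoA from acetate, averaged 49.5 ± 2.73 CPM in low-NaCl and 46.2 ± 5.23 CPM in high-NaCl libraries (adjusted p = 0.741).

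The stearoyl-CoA desaturases, which put the first double bond into saturated fatty acids, spread widely between the libraries of a diet and did not pass. Scd2 (chr19:44293674-44306864), the member with the most reads, measured 542, 588 and 788 CPM in low-NaCl libraries 1 to 3, against 612, 977 and 649.9 CPM in high-NaCl libraries 1 to 3. High-NaCl library 2 was the highest of all 6, and the log2 fold change of -0.22 ± 0.22 (adjusted p = 0.648) became 0.02 ± 0.18 (adjusted p = 0.964) when it was left out. Scd1 measured 6.93, 7.35 and 9.29 CPM in low-NaCl libraries 1 to 3, against 4.35, 8.68 and 6.76 CPM in high-NaCl libraries 1 to 3, with a log2 fold change of 0.25 ± 0.26 (adjusted p = 0.661) that became 0.50 when high-NaCl library 2 was left out, and 0.02 when library 1 of that diet was. Acly, the citrate lyase, had 0 to 4 reads per library, Elovl6, an elongase, 1 read in all, and Me1, the malic enzyme, none, over 2.19 to 8.95% of their exonic bases, and these 3 were not tested.

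Levels were compared between genes per kilobase of countable exon, and only for the 9 tested members with a single deposited identifier. In the others the reads can fall in few of the countable bases, as in Msmo1, where identifier uc009lux.1 with 1468 countable bases held all but 0 to 7 reads per library. Ebp stood first, at 97.5 CPM per kilobase in low-NaCl and 94.8 in high-NaCl libraries. The low-NaCl level was 25.3 CPM per kilobase for Nsdhl, 20.1 for Dhcr7 and 19.8 for Cyp51, and the high-NaCl level 22.5 for Nsdhl, 18.3 for Dhcr7 and 14.7 for Cyp51. In that order the libraries of neighbours overlapped. Next came Fasn, Insig1 and Tmem97, which overlapped each other and, in the high-NaCl libraries, also overlapped Cyp51. Their low-NaCl levels were 12.2 CPM per kilobase for Fasn, 11.9 for Insig1 and 11.7 for Tmem97. Their high-NaCl levels were 12.1 for Fasn, 11.2 for Insig1 and 13.5 for Tmem97. Scd1 had 1.86 CPM per kilobase in low-NaCl and 1.56 in high-NaCl libraries, and Idi1 0.811 in low-NaCl and 0.634 in high-NaCl libraries. Reads that map to several places were not counted by the program's defaults, which bears on genes with close copies.

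**Figure D5:**
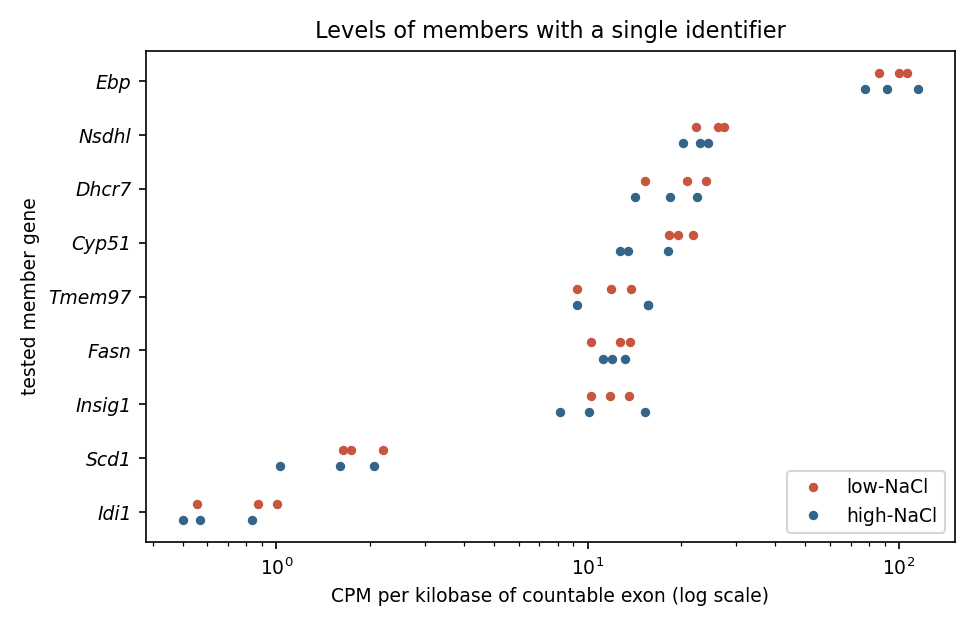
CPM per kilobase of countable exon (log axis) of the 9 tested members with a single identifier, 1 point per library, with low-NaCl points above high-NaCl points. Ebp lies at the top, at 97.5 in low-NaCl and 94.8 in high-NaCl libraries on average, and Idi1 at the bottom.

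Of genes around these pathways, 1 passed, and 3.46% of all genes did. Mylip, an E3 ubiquitin ligase switched on by sterol-sensing LXR receptors that acts in the control of sterol uptake, measured 18.9, 27.1 and 27.0 CPM in low-NaCl libraries 1 to 3, against 38.8, 47.4 and 41.4 CPM in high-NaCl libraries 1 to 3. Low-NaCl libraries were 1.746-fold lower (log2 fold change -0.80 ± 0.17, adjusted p = 0.0353), with no overlap. The log2 fold change was -0.66 to -0.89 with single libraries left out, -1.035 with a lane term and -0.72 with total-count scaling. The call ended without any of the low-NaCl libraries or without high-NaCl library 1 or 3 (adjusted p = 0.0558 to 0.111), with a lane term (0.206) and with total-count scaling (0.176). Abca1 and Abcg1, sterol exporters that are also LXR targets, had overlapping diets. Abca1 averaged 18.1 ± 9.05 CPM in low-NaCl and 19.6 ± 2.26 CPM in high-NaCl libraries (adjusted p = 0.891), and Abcg1 28.0 ± 6.31 CPM in low-NaCl and 26.1 ± 5.10 CPM in high-NaCl libraries (adjusted p = 0.836). Among 13 tested genes of sterol uptake, efflux and storage, 1 fell and 0 rose, beside 1.74% and 1.72% of all genes, and the log2 fold change of Apoe, an apolipoprotein, was -0.54 ± 0.20 (adjusted p = 0.188). The median of the 13 was 0.07.

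The other lists held no call by edgeR. Of 9 tested genes of other sterol steps and SREBP processing, 0 had an unadjusted p under 0.05. The median log2 fold change of the 9 was 0.10, and 0 were called higher or lower. Of 15 tested genes of fatty acid and glyceride synthesis outside the 33, 4 had an unadjusted p under 0.05, beside 18.3% of all genes. Elovl5, an elongase of polyunsaturated fatty acids, measured 42.8, 57.3 and 68.6 CPM in low-NaCl libraries 1 to 3, against 26.3, 41.6 and 32.5 CPM in high-NaCl libraries 1 to 3, which did not overlap (log2 fold change 0.75 ± 0.21, adjusted p = 0.0908). Acsl5, an acyl-CoA synthetase, averaged 295 ± 51.1 CPM in low-NaCl and 204 ± 62.9 CPM in high-NaCl libraries (adjusted p = 0.241). Elovl5 was called without low-NaCl library 1 (adjusted p = 0.0378), beside 4.37% of all genes with those libraries. Without high-NaCl library 2 both were called, beside 4.75% of all genes. The log2 fold changes were then 0.93 for Elovl5 (adjusted p = 0.0335) and 0.81 for Acsl5 (adjusted p = 0.0297). The replicate block also called both (adjusted p = 0.0107 for Elovl5 and 0.024 for Acsl5), beside 8.63% of all genes. DESeq2 called Elovl5 (0.0222), beside 8.11% of all genes, and limma-voom none of that list. Of 7 tested genes of cytosolic NADPH and citrate supply, 0 had an unadjusted p under 0.05, and Slc25a1, the citrate carrier, averaged 181 ± 30.3 CPM in low-NaCl and 239.5 ± 78.5 CPM in high-NaCl libraries (adjusted p = 0.395).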

How the data were processed

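Raw read counts were deposited by the authors, 1 file per library. Per the file headers, featureCounts 1.5.0-p3 counted reads in the exons of UCSC transcripts (mm10) with no strand or overlap option, so antisense reads cannot be told apart. Per the submitters' processing notes FastQC, Subread and edgeR were also used, with alignment settings not given in the sources used here. Counts are per transcript identifier (59121), so reads in exons shared by identifiers were not counted. Identifiers were matched to GENCODE M21 genes of the same build by identical introns, or else by sharing 50% or more of their exonic sequence on the same strand. The unmatched 5.57% of counts entered library sizes only. Bases inside a single identifier are called countable.

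The test was edgeR 4.0.16 under R 4.3.3, with DESeq2 1.42.0 and limma 3.58.1 as alternatives and Python 3.11.15 for matching: filterByExpr by diet, TMM, robust glmQLFit and glmQLFTest on diet, all 6 libraries, Benjamini-Hochberg over 10564 genes, threshold 0.05. SE is the absolute log2 fold change over the square root of F, and 95% intervals use it with the fit's degrees of freedom. Depth was 40101899 to 46861531 counts, and a gene's precision depends on it and on the countable bases. The procedure was tested on simulated data, where it recovered 57.3% of the 2-fold differences and 84.9% of the 4-fold ones. Of its 145 calls there, 4.14% were false. A true 2-fold difference can thus fail to pass. Alternatives were other scalings, filters and tools, a replicate block, a lane term, single transcripts, genes at least 50% countable, and each library left out.

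The members and lists were chosen with earlier results of these data known. All 33 members are named, with per-library values for the 6 with the smallest p and for others where a sentence turns on them, which were chosen after their values were seen, and of other lists the called gene and up to 2 more. Abca1 and Abcg1 were added after their values were seen. A further list of 3 sterol-regulated genes, and single genes of the list of other sterol steps and SREBP processing, are not reported here. Between replicates the lowest chi-square over its degrees of freedom was 38.2, so none was a duplicate.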

Additional observations from a re-analysis of the deposited data

How the results depend on the processing

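Over all genes, 182 were higher and 184 lower on the low-NaCl diet. The numbers were 81 and 55 with total-count scaling, 409 and 448 by DESeq2, and 1 and 2 with a lane term, where lane 1 alone informs the diet difference, and 280 were lower with no filter. Leaving out each library gave 34 to 292 higher and 36 to 254 lower. Of the 33 genes, DESeq2 called 1 higher, leaving out each library gave 0 to 2 higher, and no alternative called any lower. The median log2 difference of the tested members was 0.13, and 0.29 with the lane term. Among sterol uptake, efflux and storage genes 1 was lower, and 0 with total-count scaling or the lane term, and 0 to 1 without each library. Among the other fatty acid and glyceride synthesis genes, 1 was higher with no filter and by DESeq2, and 0 to 2 without each library. The cause of these differences was not tested.

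With the replicate number as a block, 465 genes were higher and 447 lower, 0 of the 33 were called, and of the genes of other sterol steps and SREBP processing 1 was higher. In that fit 2 genes of sterol uptake, efflux and storage were lower, and of the other fatty acid and glyceride synthesis genes 2 were higher and 1 lower. Libraries of equal number were not taken as pairs in the main fit. The correlation of same-numbered deviations from the diet means was 0.19, 0.27 and -0.07. With 3 libraries per diet these values cannot show whether the samples were paired. Of the 33 genes 8 had too few reads to test, and a low level and few countable bases cannot be told apart as the reason.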

Other observations

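Several members kept the same order of libraries in both diets, a pattern chosen after the values were seen. Srebf2, Ebp, Dhcr7, Acss2 and Fasn were highest in library 1, next in library 3 and lowest in library 2 of each diet, which makes 5 of the 25 tested members (20%), against 11.9% of all genes tested. Dhcr7 measured 58.3, 37.2 and 50.5 CPM in low-NaCl libraries 1 to 3, against 54.2, 34.5 and 44.5 CPM in high-NaCl libraries 1 to 3, so its libraries of equal number were closer to each other than to the rest of their diet. Library 1 of each diet carried lane number 1, and libraries 2 and 3 carried different lane numbers in the 2 diets.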
